A study of Caenorhabditis elegans with 10 samples.

Results

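Transient receptor potential (TRP) channels outside the TRPV family were followed in sorted cells of Caenorhabditis elegans. The 10 genes were taken by name from the authors' deposited table, which has 46272 genes after a repeated row was dropped. They are trpa-1 (TRPA), trp-1 and trp-2 (TRPC), trp-4 (TRPN), gon-2, gtl-1 and gtl-2 (TRPM), pkd-2 and lov-1 (TRPP) and cup-5 (TRPML). Cells came from untreated wild-type worms kept on normal NGM plates and were sorted by fluorescence. Cells with a YFP label for ASH gave 5 libraries, and cells lacking YFP gave the 5 non-ASH libraries. ASH is a pair of head sensory neurons that respond to osmotic shock, touch and repellents. The age and sex of the worms, the promoter that drove YFP and whether libraries came from separate cultures are not stated in the labels, so the p-values may measure a technical spread.

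TRP channels are tetrameric cation channels of the plasma membrane or of internal membranes, and many carry calcium. Members of the superfamily act in nematodes in touch and stretch sensing, in responses to temperature, in male mating, in magnesium balance of gut and excretory system, and in lysosomes. TRPV channels are known to act in sensory responses of ASH, and the comparison asks what the sorted fractions hold of the other TRP classes.

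Of the 10 genes, gon-2 was the only one called different by either of the authors' tools, and it was lower in ASH. The mucolipin gene cup-5 was by far the most abundant in both fractions, and 7 of the 10 lay under 1 FPKM (fragment counts scaled by transcript length and library size) in both. The authors' deposited table holds 1 FPKM per group of 5 libraries, with no library values, so no SD or depth stands behind a level. Fold changes are the authors' DESeq2 log2 values of ASH over non-ASH, and a gene is called at an adjusted p under 0.05. If the deposited p is that of a 2-sided Wald test, DESeq2's usual test, fold change and p together imply a standard error and a 95% interval, which are given as implied. The labels do not state the type of test.

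Of the 10 genes, 9 were tested, meaning that they had an adjusted p in the authors' deposited table. Among these 9, 1 was lower and 0 were higher in ASH by DESeq2, while 4.44% of all 16802 tested genes were lower and 5.32% were higher. With unadjusted DESeq2 p under 0.05 the members' counts were also 1 and 0, against 12.3% of tested genes lower and 11.4% higher per the authors' deposited table. Cuffdiff, the authors' other tool, likewise had 1 lower and 0 higher at q under 0.05, where 3.53% of tested genes were lower and 3.58% higher. With 9 genes tested, a count of 1 is read as no more than the background. Of the 2756 tested genes under 1 FPKM in both groups, 1.02% were called lower and 0.327% higher per the authors' deposited table, and 6 of the 9 tested members were of this kind. A sign below 0 was seen for 8 of the 9 and for 54.3% of all tested genes, and the members' median log2 fold change was -0.35, beside -0.09 for all tested genes per the authors' deposited table.

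**Figure D1:**
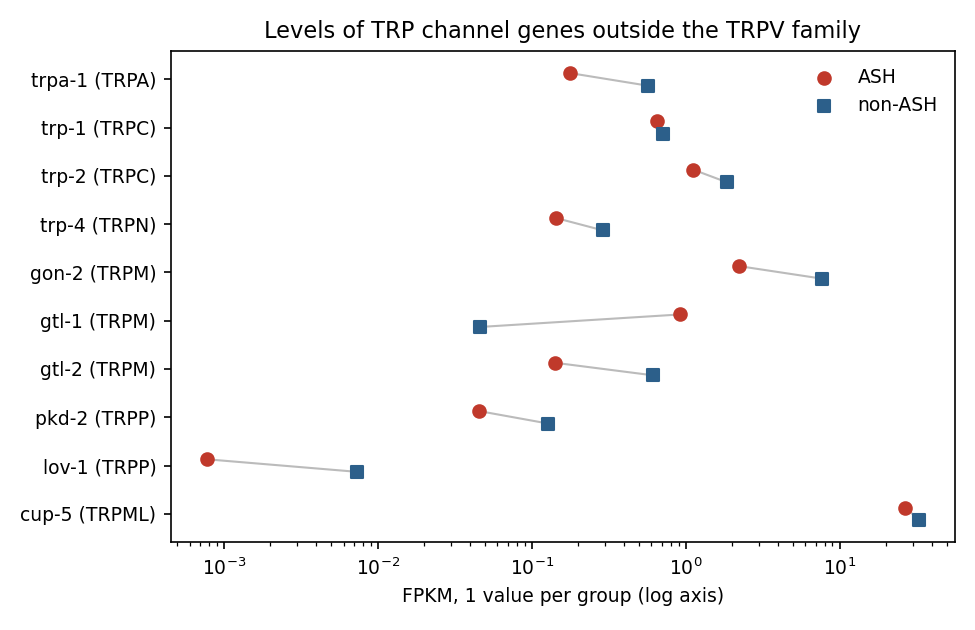
Levels of the 10 genes as FPKM on a log axis, 1 value per group, with circles for ASH and squares for non-ASH, so no error can be drawn. The ASH value lies left of the non-ASH value for 9 genes and right of it for gtl-1, and cup-5 stands alone above 20 FPKM in both.

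In ASH the order of levels per the authors' deposited table was cup-5, gon-2, trp-2, gtl-1, trp-1, trpa-1, trp-4, gtl-2, pkd-2 and lov-1. In non-ASH it was cup-5, gon-2, trp-2, trp-1, gtl-2, trpa-1, trp-4, pkd-2, gtl-1 and lov-1. FPKM is scaled by length, so genes can be set side by side, but without library values it cannot be said which neighbours in these orders differ. The top 3 places and the last were the same in both, and the gene that changed place most was gtl-1, which was the fourth in ASH and the ninth in non-ASH. The summed FPKM of all 10 was 32.2 in ASH and 44.9 in non-ASH per the authors' deposited table. cup-5 made up 83.1% of the sum in ASH and 73.4% in non-ASH. Without it the other 9 summed to 5.45 FPKM in ASH cells, against 12 FPKM in non-ASH cells, and gon-2 held the largest share of that remainder in both.

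gon-2 encodes a TRPM channel needed for divisions of the gonad precursor cells, and it acts with gtl-1 in magnesium uptake by the intestine. It was listed at 2.24 FPKM in ASH cells, against 7.75 FPKM in non-ASH cells, per the authors' deposited table, which is 3.47-fold less in ASH. The gene stood at percentile 37 of tested genes in ASH and at percentile 51.9 in non-ASH. Its DESeq2 log2 fold change per the authors' deposited table was -1.34, with an adjusted p of 0.0145 and an implied standard error of 0.40. The implied interval ran from -2.12 to -0.56, so both less and more than a 2-fold change are compatible with it. Cuffdiff gave -1.44 on the FPKM plus 1 scale and q = 0.0221 per the authors' deposited table. Both tools therefore called gon-2 lower, as they did 2.24% of tested genes. Its call also stood with a change of at least 2-fold asked for, as for 4.08% of tested genes, and among genes of at least 1 FPKM (5.11% lower) or at least 5 FPKM (5.67% lower) in either group. These filters reuse the same adjusted p, so at -1.34 and 7.75 FPKM the call was bound to stand and gains nothing from them. At an adjusted p under 0.01 it was no longer called, and 2.06% of tested genes were. The gene lies on chromosome I and has 5 transcripts in the table.

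Of 6 gonad and germline markers, 2 were lower in ASH and 0 higher by DESeq2, and all 6 had a negative fold change, per the authors' deposited table. Those lower were ceh-18, a POU homeobox gene of the gonadal sheath (-1.68, adjusted p = 0.0154), and lim-7, a LIM homeobox gene of the same cells (-1.64, adjusted p = 0.0417), as the authors' deposited table gives them. The other 4, fkh-6, lag-2 and the germline genes pgl-1 and glh-1, did not pass, with adjusted p between 0.107 for glh-1 and 0.798 for lag-2 there. Summed FPKM of the list was 286 in ASH and 415 in non-ASH, and single genes ranged between 0.461 and 170 FPKM in ASH and between 0.656 and 211 FPKM in non-ASH per the authors' deposited table. Intestine markers, from the other tissue named for gon-2, leaned the other way, with 2 of 10 higher, 0 lower and 9 positive by DESeq2. The part of either tissue in the value of gon-2 was not tested. In sorted pools, fewer cells of a type and less RNA per cell cannot be told apart.

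gtl-1 encodes an intestinal TRPM channel that works with gon-2 in magnesium uptake, and it was the one member with a higher level in ASH. Its level was 0.923 FPKM in ASH cells, against 0.0459 FPKM in non-ASH cells, per the authors' deposited table. Those levels differ 20.1-fold, but a ratio to a value as near to 0 as 0.0459 FPKM carries little. The log2 ratio for gtl-1 was 2.81 with 0.1 added to each FPKM and 0.23 with 5 added. The authors' DESeq2 log2 fold change was 1.04, with an adjusted p of 0.41 per the authors' deposited table. The implied standard error of 0.77 gives an interval from -0.47 to 2.56, which includes both 0 and a change of more than 2-fold. Cuffdiff did not call gtl-1 either, at q = 0.473 per the authors' deposited table. By DESeq2, 2 of 10 intestine markers were higher and 0 lower, and 9 had a positive fold change per the authors' deposited table. Those higher were elt-2, the GATA factor gene of the intestine (1.67, adjusted p = 0.00823), and asp-1, for an aspartic protease (2.22, adjusted p = 0.00857), per the authors' deposited table. Cuffdiff also called 2 of the list higher, elt-2 and elt-7, and 1 lower, the intestinal actin gene act-5. The summed level of the 10 was 5970 FPKM in ASH cells, against 1600 FPKM in non-ASH cells, with single genes from 0.573 to 3660 FPKM in ASH and from 0.357 to 692 FPKM in non-ASH per the authors' deposited table. Their part in the value of gtl-1 was not tested.

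gtl-2, a TRPM channel gene of the excretory canal cell, where it serves magnesium excretion, was listed at 0.141 FPKM in ASH cells, against 0.611 FPKM in non-ASH cells, per the authors' deposited table. It had the most negative DESeq2 fold change of the 10 there, -1.59, and did not pass (adjusted p = 0.248, implied interval -3.29 to 0.11). Of 6 excretory canal cell markers, 1 was lower and 0 higher, namely nhr-31, a nuclear receptor gene, at -1.42 (adjusted p = 0.017) per the authors' deposited table. The list summed to 167 FPKM in ASH cells, against 211 FPKM in non-ASH cells, over ranges of 0.839 to 110 FPKM in ASH and 1.4 to 138 FPKM in non-ASH per the authors' deposited table. Their part in the value of gtl-2 was not tested. Of the magnesium transporter genes cnnm-1 to cnnm-5 and the gon-2 modifier genes gem-1 and gem-4, 7 were tested and 0 were called in either direction by DESeq2 or by Cuffdiff per the authors' deposited table. Unadjusted p was also at or above 0.05 for all 7, and the list median was -0.02.

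**Figure D2:**
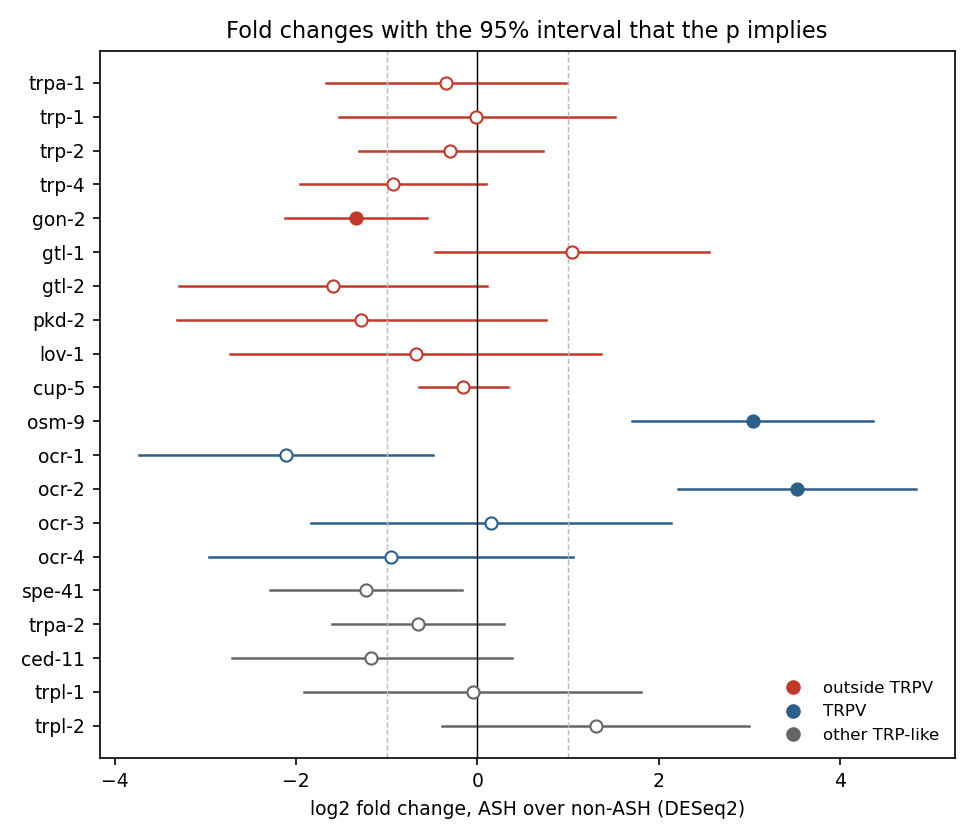
DESeq2 log2 fold changes (ASH over non-ASH) with the 95% interval implied by the p, for the 10 genes, the TRPV genes and other TRP-like genes with a p. Filled points have an adjusted p under 0.05 and dashed lines mark 2-fold. Of the 10 genes gon-2 alone is filled, and the interval of cup-5 alone lies inside both dashed lines.

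cup-5 encodes the mucolipin of late endosomes and lysosomes, required for lysosome formation and for degradation of endocytosed material in coelomocytes. It had 26.8 FPKM in ASH cells, against 32.9 FPKM in non-ASH cells, per the authors' deposited table, which puts it at percentile 72.8 of tested genes in ASH and at percentile 74.4 in non-ASH. The DESeq2 log2 fold change was -0.16 with an adjusted p of 0.725 per the authors' deposited table. The implied interval from -0.65 to 0.34 lies within 2-fold in both directions, and cup-5 was the only one of the 10 for which this held. Coelomocyte markers, in contrast, were all lower, 3 of 3 by both tools. They were cup-4, a ligand-gated channel subunit gene of endocytosis (-3.10), the coelomocyte gene unc-122 (-2.71) and the channel subunit gene lgc-26 (-2.49), per the authors' deposited table. Their summed level was 9.04 FPKM in ASH cells, against 85.3 FPKM in non-ASH cells, with ranges of 0.354 to 4.45 FPKM in ASH and 7.73 to 49.4 FPKM in non-ASH per the authors' deposited table. The part of coelomocytes in the value of cup-5 was not tested. Of 12 other endolysosome genes, among them lmp-1, rab-7 and the PIKfyve homologue ppk-3, 0 were called by DESeq2 in either direction and the median was 0.29 per the authors' deposited table. By unadjusted p, 3 of these 12 were higher and 1 was lower. Cuffdiff called 1 of them higher, the zinc transporter gene cdf-2 (10.9 FPKM in ASH, 0.67 FPKM in non-ASH, q = 0.00261), for which DESeq2 had an adjusted p of 0.0747 per the authors' deposited table.

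The TRPC genes trp-1 and trp-2 encode canonical channels, linked in other animals to phospholipase C and in this worm to responses of interneurons to nicotine. trp-2 stood at 1.12 FPKM in ASH cells, against 1.85 FPKM in non-ASH cells, per the authors' deposited table, and its log2 fold change of -0.30 did not pass (adjusted p = 0.749, implied interval -1.31 to 0.72). trp-1 had 0.655 FPKM in ASH cells, against 0.717 FPKM in non-ASH cells, with a DESeq2 log2 fold change of -0.01 (adjusted p = 0.996) per the authors' deposited table. That value is the closest to 0 of the 10, but its implied interval from -1.53 to 1.52 still allows more than a 2-fold difference either way. Of 13 tested genes for Gq, phospholipase C isoforms, store-operated calcium entry and their kinases, 1 was lower and 0 higher per the authors' deposited table, with a median of -0.28. It was plc-3, a phospholipase C gamma gene, at 1.21 FPKM in ASH cells, against 9.32 FPKM in non-ASH cells (log2 fold change -2.02, adjusted p = 0.00275, Cuffdiff q = 0.00186) per the authors' deposited table. The IP3 receptor gene itr-1 had a fold change without a p there.

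trpa-1 encodes the TRPA channel, which in the worm has been tied to cold sensing and to lifespan at low temperature. It was listed at 0.178 FPKM in ASH cells, against 0.567 FPKM in non-ASH cells, or percentile 6.11 of tested genes in ASH and 15.2 in non-ASH, per the authors' deposited table. Its log2 fold change was -0.35 with an adjusted p of 0.78 and an implied interval from -1.67 to 0.98 per the authors' deposited table. Of the kinase genes pkc-2 and sgk-1 and the transcription factor gene daf-16, which have been placed downstream of TRPA-1 in cold-dependent lifespan, 0 of 3 were called by either tool. At unadjusted DESeq2 p, sgk-1 was higher, with 9.96 FPKM in ASH cells, against 4.28 FPKM in non-ASH cells (log2 fold change 1.06, adjusted p = 0.129) per the authors' deposited table.

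trp-4 encodes the TRPN channel, a pore-forming mechanosensitive channel of dopaminergic touch neurons and of stretch-sensitive tail interneurons. It had 0.143 FPKM in ASH cells, against 0.292 FPKM in non-ASH cells, per the authors' deposited table, and a log2 fold change of -0.93 that did not pass (adjusted p = 0.261, implied interval -1.96 to 0.09). Of 8 dopaminergic neuron markers, 1 was higher and 0 lower in ASH per the authors' deposited table. This was the dopamine receptor gene dop-2, at 20.1 FPKM in ASH cells, against 0.66 FPKM in non-ASH cells (log2 fold change 3.23) per the authors' deposited table. The synthesis and transporter genes cat-2 and dat-1, which define these neurons, were under 1 FPKM in both fractions. Per the authors' deposited table, cat-2 had 0.288 FPKM in ASH cells, against 0.232 FPKM in non-ASH cells, and dat-1 had 0.665 FPKM in ASH cells, against 0.614 FPKM in non-ASH cells. The 8 summed to 32.1 FPKM in ASH cells, against 14.2 FPKM in non-ASH cells, in ranges of 0.288 to 20.1 FPKM in ASH and 0.232 to 4.48 FPKM in non-ASH per the authors' deposited table. This direction rests on dop-2: without it the other 7 summed to 11.9 FPKM in ASH cells, against 13.5 FPKM in non-ASH cells. Their part in the value of trp-4 was not tested.

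The polycystin genes pkd-2 and lov-1 are known for sensory cilia of male-specific neurons used in mating. They had the lowest levels of the 10 in ASH. pkd-2 was listed at 0.0453 FPKM in ASH cells, against 0.128 FPKM in non-ASH cells, and its log2 fold change of -1.28 did not pass (adjusted p = 0.456, implied interval -3.32 to 0.76) per the authors' deposited table. lov-1 was listed at 0.000774 FPKM in ASH cells, against 0.00731 FPKM in non-ASH cells, per the authors' deposited table. It had a log2 fold change of -0.68, a p of 0.514 and no adjusted p there. A ratio between such levels carries little, and Cuffdiff gave both genes a p of 1 per the authors' deposited table. Among 12 tested genes that go with the polycystins in male ciliated neurons, 1 was higher and 1 lower by DESeq2, 0 were called by Cuffdiff and the median was -0.45. Both called genes belong to the cwp group, named for coexpression with polycystins. cwp-5 stood at 11.1 FPKM in ASH cells, against 0.375 FPKM in non-ASH cells (log2 fold change 4.23, adjusted p = 5.62e-06), and cwp-1 at 0.0403 FPKM in ASH cells, against 3.2 FPKM in non-ASH cells (-4.07, adjusted p = 0.00256), per the authors' deposited table. The 12 genes and cwp-3, which had no p, summed to 31.2 FPKM in ASH cells, against 28.4 FPKM in non-ASH cells, with single genes from 0 to 13.5 FPKM in ASH and from 0.00787 to 14.3 FPKM in non-ASH per the authors' deposited table. Without cwp-5 the other 12 summed to 20 FPKM in ASH cells, against 28.1 FPKM in non-ASH cells, so the direction of the sum rests on that gene. Of these 13, cwp-3 was listed at 0 in ASH. Their part in the values of pkd-2 and lov-1 was not tested. The called genes did not move one way, and the polycystin genes themselves did not pass in either direction.

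**Figure D3:**
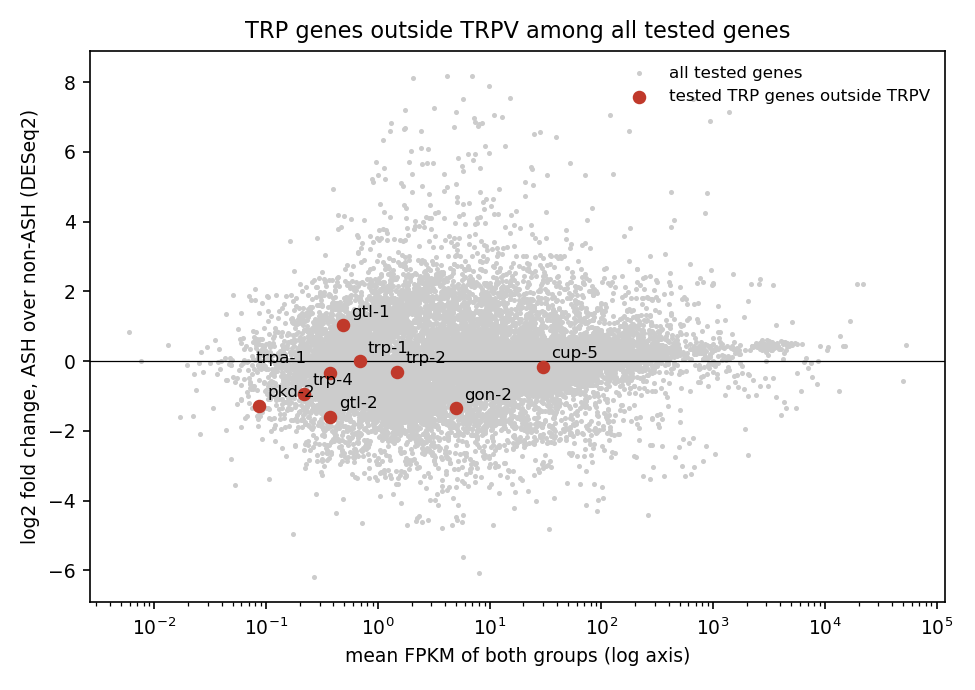
Each tested gene by the mean FPKM of both groups (log axis) and its DESeq2 log2 fold change, ASH over non-ASH, with the 9 tested TRP genes outside TRPV in red. They sit inside the cloud of all tested genes, mostly at its low-level end, with cup-5 and gon-2 furthest to the right.

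Of the 5 TRPV genes, from a family that acts in sensory responses of ASH, 3 were tested and 2 were higher in ASH. These were osm-9 (9.05 FPKM in ASH, 0.863 FPKM in non-ASH) and ocr-2 (8.75 FPKM in ASH, 0.775 FPKM in non-ASH), per the authors' deposited table. Their implied intervals, 1.71 to 4.37 for osm-9 and 2.21 to 4.84 for ocr-2, begin above the upper end of the interval of 9 of the 10 genes outside TRPV, the exception being gtl-1. For genes as near to 0 FPKM as lov-1 and pkd-2, each with an implied standard error of 1.04, the interval carries little. trpa-1, trp-1, trp-4 and gtl-2 were also under 1 FPKM in both fractions, and their DESeq2 values were smaller in size than their log2 FPKM ratios. The place of all these low genes in this count is therefore not read as a difference from osm-9 and ocr-2. No test of the difference between genes was possible without library values. In ASH, osm-9 and ocr-2 were above gon-2 and under cup-5 in FPKM. The third tested TRPV gene, ocr-1, stood above cup-5, at 220 FPKM in ASH cells, against 41.5 FPKM in non-ASH cells, per the authors' deposited table. Its DESeq2 log2 fold change had the other sign, -2.11, and it was not called (adjusted p = 0.0821, implied interval -3.74 to -0.49). Cuffdiff did not call ocr-1 either, at a log2 ratio of 2.38 and q = 0.532 per the authors' deposited table. The genes ocr-3 and ocr-4 were at or under 0.165 FPKM in both fractions with no adjusted p per the authors' deposited table.

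Among 8 other TRP-like genes with a row, 5 were tested and 0 were called by either tool per the authors' deposited table. By unadjusted DESeq2 p 1 was lower, spe-41, a TRPC gene of sperm needed for fertilization, at 0.128 FPKM in ASH cells, against 2.02 FPKM in non-ASH cells (log2 fold change -1.23, adjusted p = 0.133) per the authors' deposited table. trpa-2, annotated as a TRPA homologue, had -0.66 and ced-11, a TRPM-like gene acting in programmed cell death, -1.17 per the authors' deposited table. The genes named as TRP-channel-like stood at -0.05 for trpl-1, a pseudogene in the table, and at 1.31 for trpl-2 per the authors' deposited table. trpl-5 had a fold change of 0.29 without a p, and trpl-3 and trpl-4 were listed at 0 in both fractions.

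**Figure D4:**
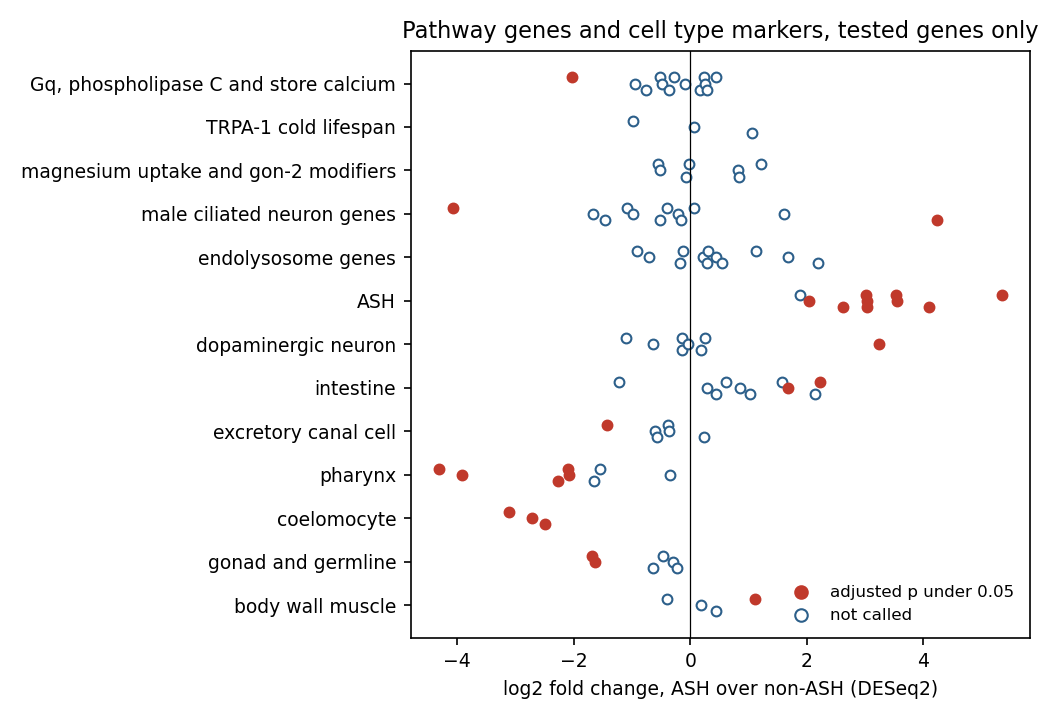
DESeq2 log2 fold changes (ASH over non-ASH) of the tested genes in each pathway and marker list, filled where the adjusted p is under 0.05. ASH markers and most intestine markers lie to the right, and pharynx and coelomocyte markers to the left. The pathway lists lie mostly around 0. Of their called genes, cwp-5 lies far to the right and plc-3 and cwp-1 to the left. Some uncalled genes also lie away from 0, such as cdf-2 at 2.19 and trf-1 at -1.67.

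The labels were set beside markers, but the lists were chosen with earlier results of these data known, so this is not an independent check. Of 10 tested ASH markers, osm-9 and ocr-2 among them, 9 were higher and 0 lower per the authors' deposited table, led by osm-10 at 142 FPKM in ASH cells, against 1.12 FPKM in non-ASH cells. By DESeq2, 5 of 8 pharynx markers were lower, with phat-3 (-4.31), phat-4 (-3.92) and the troponin I gene tni-4 (-2.26) leading per the authors' deposited table, and of 4 body wall muscle markers 1 was higher, the myosin gene unc-54 (1.11). Intestine markers also leaned towards ASH, with 2 of 10 higher, 0 lower and 9 positive by DESeq2. Their sum was 5970 FPKM in ASH cells, against 1600 FPKM in non-ASH cells, per the authors' deposited table. Without asp-1 the other 9 summed to 2310 FPKM in ASH cells, against 905 FPKM in non-ASH cells, so the direction stayed. Cuffdiff called 2 of the list higher and 1, act-5, lower. ASH markers were thus not the only list higher in the ASH fraction. No marker gene of these lists was listed at 0 in either fraction.

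The DESeq2 and Cuffdiff fold changes had the same sign for all 10 genes. For each of the 10 the DESeq2 value was smaller in size than the log2 ratio of the FPKM, which was so for 74.8% of the 16742 tested genes above 0 in both fractions per the authors' deposited table. Annotation of the WBcel235 assembly places exons of other genes over exons of 4 of the 10. The shared stretch was 7.22% of the exonic bases of pkd-2, 5.06% of lov-1, 3.84% of trp-4 and 0.481% of cup-5, and 0 for the other 6, gon-2 included. All of these partners lie on the opposite strand but for short piRNA genes within pkd-2. Libraries were strand-specific, but the labels do not state whether counting used the strand, so the 4 values are uncertain to that extent.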

How the data were processed

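Poly(A) RNA of sorted cells was sequenced as strand-specific libraries, per the labels' protocols, and groups were read from sample titles. Alignment tools (Bowtie2 2.2.1, TopHat2 2.0.13), HTSeq with DESeq2 and Cufflinks with Cuffdiff appear in the submitters' processing notes. The labels state neither genome build nor settings, so no coordinates are printed. The deposited FPKM values are the authors' Cuffdiff group values plus 1, and the 1 was subtracted. The deposited log2 values are the authors' fold changes, and the Cuffdiff ones match the log2 ratio of the values plus 1. The deposited p-values and q-values are those of the authors' tools. No values per library were used, so tests on counts foreseen in the design could not be run and depth is unknown. Implied standard errors are the authors' DESeq2 log2 fold change divided by the normal quantile of its p, a calculation tested on simulated data. List genes were matched by table name, otherwise by current symbol. Members and lists were chosen with earlier results of these data known. All 10 members, all TRPV and TRP-like genes and, of other lists, up to 3 called genes with the smallest adjusted p were named by rule. Others (sgk-1, cdf-2, cat-2, dat-1, elt-7, act-5, itr-1 and list examples) were named after their values were seen. Alternatives were Cuffdiff's q, both tools, an adjusted p under 0.01, 2-fold, floors of 1 and 5 FPKM, pseudocounts of 0.1 and 5 and, added after seeing the data, unadjusted p, genes under 1 FPKM as background and list sums without 1 gene. Python 3.11.15, pandas 2.3.3 and SciPy 1.17.1 were used.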

Additional observations from a re-analysis of the deposited data

How the results depend on the processing

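The count of 1 lower gene, gon-2, was the same by Cuffdiff's q, by both tools, with a 2-fold minimum, with floors of 1 and 5 FPKM and at unadjusted p, and it was 0 with an adjusted p under 0.01. The count of higher genes was 0 under each of these. Of these settings, only Cuffdiff's q and the unadjusted p could have added a call. The 2-fold minimum and the floors reuse the same adjusted p, and gon-2 passes them by its fold change and level. Of the 9 tested genes, 3 had at least 1 FPKM and 2 at least 5 FPKM in either group. With pseudocounts of 0.1 and 5 in place of the added 1, the 10 log2 FPKM ratios spanned -1.75 to 2.81 at 0.1 and -0.82 to 0.23 at 5. The sign of a ratio cannot change when the same value is added to both groups, so only sizes were compared here. No paired analysis was possible because the table gives no values per library, and for the same reason leaving out single libraries was not run.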

Other observations

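The TRPV gene ocr-1 had opposite signs in the authors' 2 tools. The Cuffdiff log2 ratio was 2.38, while the DESeq2 log2 fold change was -2.11, neither of them called, per the authors' deposited table. Signs differed between the tools for 907 of 16802 tested genes, and ocr-1 was the only 1 of them with both values at least 1 in size, a limit chosen after the values were seen. In the WBcel235 annotation 8.4% of the exonic bases of ocr-1 are shared with genes on the opposite strand, D1054.1 and F28H7.12. Whether this overlap bears on the difference was not tested.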
